A study of Rattus norvegicus with 8 samples.

Results

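ASPM, CDCA3 and SHCBP1 are 3 genes of cell division, followed here in 2 rat pituitary tumour lines treated with dopamine agonists. They were chosen by their intensity with cabergoline (CAB) against the untreated control in MMQ cells, where the study lists them among the genes lowered by CAB. They are 3 of the 28295 probe sets with deposited values and 3 of the 20 genes that could be identified. GH3 cells, which secrete prolactin and growth hormone, and MMQ cells, which secrete prolactin, are established lines from rat pituitary tumours, grown here in different media. Each line was measured untreated and under bromocriptine (BRC), CAB or both drugs together (CAB+BRC). This gave 8 Affymetrix rat genome arrays with 1 array per condition, so no condition has a replicate. The single drugs were given at 50 μM from a stock in DMSO (0.2% at the end), and for the combination the dose of each drug was not found. A treatment time of 48 h was found for the GH3 control, GH3 BRC, MMQ control and MMQ CAB arrays only. Whether the control cells received DMSO was not found.

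ASPM holds the minus ends of spindle microtubules and sets the orientation of the mitotic spindle, and its loss causes small brains. CDCA3 is an F-box-like protein that helps to destroy the mitosis inhibitor WEE1, so that cells can enter mitosis. SHCBP1 binds the adaptor SHC1 and works at the midbody, where daughter cells separate. All 3 are made mainly in dividing cells, from S phase to mitosis. Genes of this kind are commonly switched by E2F factors, by the CCAAT-binding factor NF-Y and by complexes that bind an element called CHR. Both drugs are ergot compounds that activate the dopamine D2 receptor, through which dopamine restrains lactotroph cells of the pituitary.

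The deposited names of the probe sets could not be used, since they do not belong to the values in the same row, so each gene was identified by the fold between MMQ CAB and MMQ control that the study printed for it. Each of the 3 genes had 1 matching probe set, whose fold differed from the printed one by no more than 2.14e-07 of it. The next nearest probe set was at least 0.00481 away. LGALS3, which the study lists for both lines, led to the same probe set from both folds. The probe sets annotated as Aspm, Cdca3 and Shcbp1 were other ones. Over the 8 arrays the one annotated as Aspm was bright, between 625 and 1882, with 737 in the MMQ control and 806 with CAB. The one annotated as Cdca3 lay between 25.9 and 35.4, and the pair annotated as Shcbp1 between 16.7 and 51.9, compared with array medians of 45.9 to 49.9. Because of the names, the other genes of mitosis could not be followed, and neither could prolactin, growth hormone or the dopamine receptor as marks of the cell type. TTK, a mitotic kinase that the study lists beside these genes, had no matching probe set and was not analysed here. The fold between MMQ CAB and MMQ control was used to choose the genes, so it is given as a description and was not tested.

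The promoters of the 3 genes are shown because all 3 were lower with CAB in MMQ cells, the difference that chose them. They are the RefSeq windows of 300 bases on the rat build GRCr8, from 250 bases before to 50 bases after the transcript start. Searched were CHR (TTTGAA), the CCAAT box (CCAAT), an E2F-type element (TTTNNCGC) and a CHR variant (TTCGAA), the last added after the sequences had been read. Both strands were searched, no matches overlapped, and capitals mark the matches.
Aspm, chr13:53625334-53625633, plus strand: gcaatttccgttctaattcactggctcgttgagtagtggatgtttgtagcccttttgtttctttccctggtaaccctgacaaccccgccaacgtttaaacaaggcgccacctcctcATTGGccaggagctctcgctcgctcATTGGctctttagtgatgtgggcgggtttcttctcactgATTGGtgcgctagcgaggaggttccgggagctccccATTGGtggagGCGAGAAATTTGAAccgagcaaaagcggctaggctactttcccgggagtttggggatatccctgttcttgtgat
Cdca3, chr4:159320953-159321252, plus strand: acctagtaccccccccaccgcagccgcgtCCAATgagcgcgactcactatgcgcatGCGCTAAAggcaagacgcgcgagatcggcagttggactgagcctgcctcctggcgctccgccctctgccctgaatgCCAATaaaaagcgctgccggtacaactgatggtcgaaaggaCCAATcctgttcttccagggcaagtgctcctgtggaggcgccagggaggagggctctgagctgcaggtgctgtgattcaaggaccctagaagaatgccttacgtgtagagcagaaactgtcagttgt
Shcbp1, chr16:91373621-91373920, plus strand: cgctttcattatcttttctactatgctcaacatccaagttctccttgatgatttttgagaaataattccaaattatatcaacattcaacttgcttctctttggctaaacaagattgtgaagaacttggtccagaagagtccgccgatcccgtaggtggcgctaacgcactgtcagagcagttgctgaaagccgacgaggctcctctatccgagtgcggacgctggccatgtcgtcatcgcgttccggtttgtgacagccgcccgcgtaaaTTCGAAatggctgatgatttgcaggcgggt

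The Aspm promoter held 4 CCAAT boxes, all on the minus strand, and an E2F-type match directly followed by a CHR match that ended 11 bases before the start. Of all 33469 promoters of this length, 0.675% held 4 or more CCAAT boxes, 18.3% a CHR and 4.92% an E2F-type match. Cdca3 held 3 CCAAT boxes and 1 E2F-type match, and 3.02% of the promoters held 3 or more CCAAT boxes. Neither CHR form was found in its window. The annotated Shcbp1 gene starts at base 91373843, upstream of the transcript start used for its window. The CHR variant alone was found in this window, 21 bases after that transcript start, and 1.69% of the promoters held it. These are matches of letters, and binding was not measured.

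**Figure D1:**
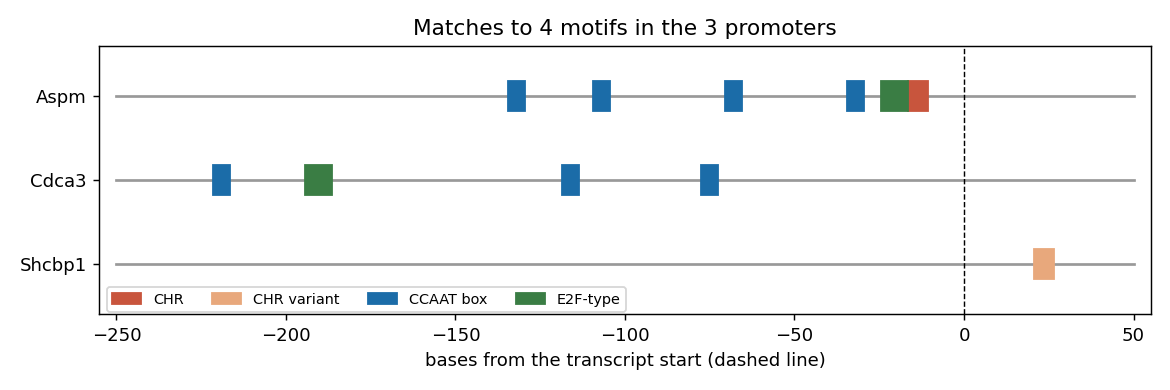
Matches to 4 motifs in the promoter windows of Aspm, Cdca3 and Shcbp1, by distance in bases from the transcript start (dashed line). Aspm has 4 CCAAT boxes (blue) and an E2F-type match (green) next to a CHR (red), Cdca3 has 3 CCAAT boxes, and Shcbp1 has the CHR variant (orange) alone.

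In MMQ cells the 3 genes were low in both arrays with CAB and high in both without it. ASPM had an intensity of 727 in the control, 635 under BRC, 116 under CAB and 156 under CAB+BRC. CDCA3 was at 528 in the control, 542 under BRC, 66.0 under CAB and 74.1 under CAB+BRC. SHCBP1 was at 161 in the control, 165 under BRC, 15.9 under CAB and 18.7 under CAB+BRC. For every gene the arrays with and without CAB did not overlap, but the control and CAB arrays among them chose the genes. The share of all probe sets with no such overlap was not counted. The intensity left with CAB was 15.9% of the control for ASPM, 12.5% for CDCA3 and 9.86% for SHCBP1. On the scale of log2 of the intensity plus 1, used for all differences, CAB against control gave -2.64 for ASPM, -2.98 for CDCA3 and -3.26 for SHCBP1. Of all probe sets, 1.37% were at least 2-fold lower in this pair, which chose the genes. These are bulk samples, in which fewer dividing cells and less RNA per cell cannot be told apart. At the dose of the single-drug arrays, the paper reports death of most MMQ cells with CAB and of fewer with BRC. In GH3 cells it reports more death with BRC than with CAB. The share of RNA from dying or surviving cells is not known for these arrays, and its part in the differences was not tested.

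**Figure D2:**
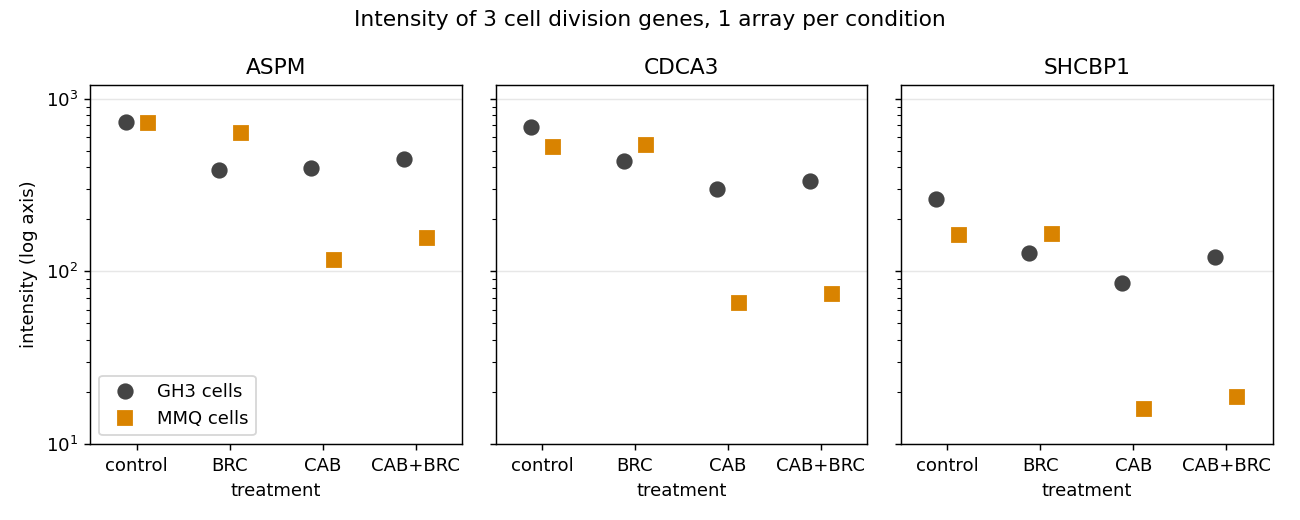
Intensity (log axis) of ASPM, CDCA3 and SHCBP1 by treatment, 1 point per array, with GH3 cells as grey circles and MMQ cells as orange squares. In MMQ cells both arrays with CAB lie far below the control and BRC arrays, while in GH3 cells the control is the highest point and the 3 drug arrays lie below it.

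The MMQ CAB+BRC and MMQ BRC arrays were not used to choose the genes, and they gave the CAB difference once more. With BRC present, ASPM had a log2 difference of -2.02, CDCA3 of -2.85 and SHCBP1 of -3.07. All 3 were at least 2-fold lower, as were 1.09% of all probe sets. Against the MMQ control, CAB+BRC gave -2.22, -2.82 and -3.05 in the same order, and all 3 were at least 2-fold lower beside 1.13% of all probe sets. That pair shares the control array with the pair that chose the genes. In CAB+BRC against BRC, counted from the lowest difference upwards, SHCBP1 was number 2, CDCA3 number 4 and ASPM number 59 of the 28295 probe sets. Both CDCA3 and SHCBP1 stood nearer to the lower end than ASPM. This pair was tested with limma on the 6 arrays other than MMQ control and MMQ CAB, over the 14147 brighter probe sets, those whose mean log2 value exceeded the median, two-sided and adjusted by Benjamini-Hochberg. The spread came from GH3 cells, namely from how far CAB+BRC departed there from the summed effects of the single drugs, with 1 residual degree of freedom. The effect itself is the difference of 1 array from 1 other, so the spread between MMQ cultures is not in these p-values. The threshold of 0.05 was passed by CDCA3, with a standard error of 0.325 and an adjusted p of 0.0256 in limma, and by SHCBP1, with 0.455 and 0.0382. ASPM did not pass it, with a standard error of 0.372, a 95% interval of -2.88 to -1.17 and an adjusted p of 0.0605 in limma. Of the tested probe sets, 0.452% passed with an effect below 0. The calls of CDCA3 and SHCBP1 were lost when dim probe sets were tested too (adjusted p = 0.196 and 0.257 in limma) or with a pseudocount of 16 (0.0710 and 0.129), and that of SHCBP1 also with arrays centred on their medians (0.0641).

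SHCBP1 was dim with CAB, where 23.8% of all probe sets were at or below it, and 30.1% with CAB+BRC. In the MMQ control the share was 73.7%. Its log2 difference for CAB with BRC present was -2.38 with a pseudocount of 16, whereas CDCA3 kept -2.63 and ASPM -1.92 there. The order of the genes by the size of their difference therefore changed with the pseudocount, CDCA3 then being the lowest. CDCA3 in the CAB array was above 56.8% of the probe sets and ASPM above 67.2%.

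**Figure D3:**
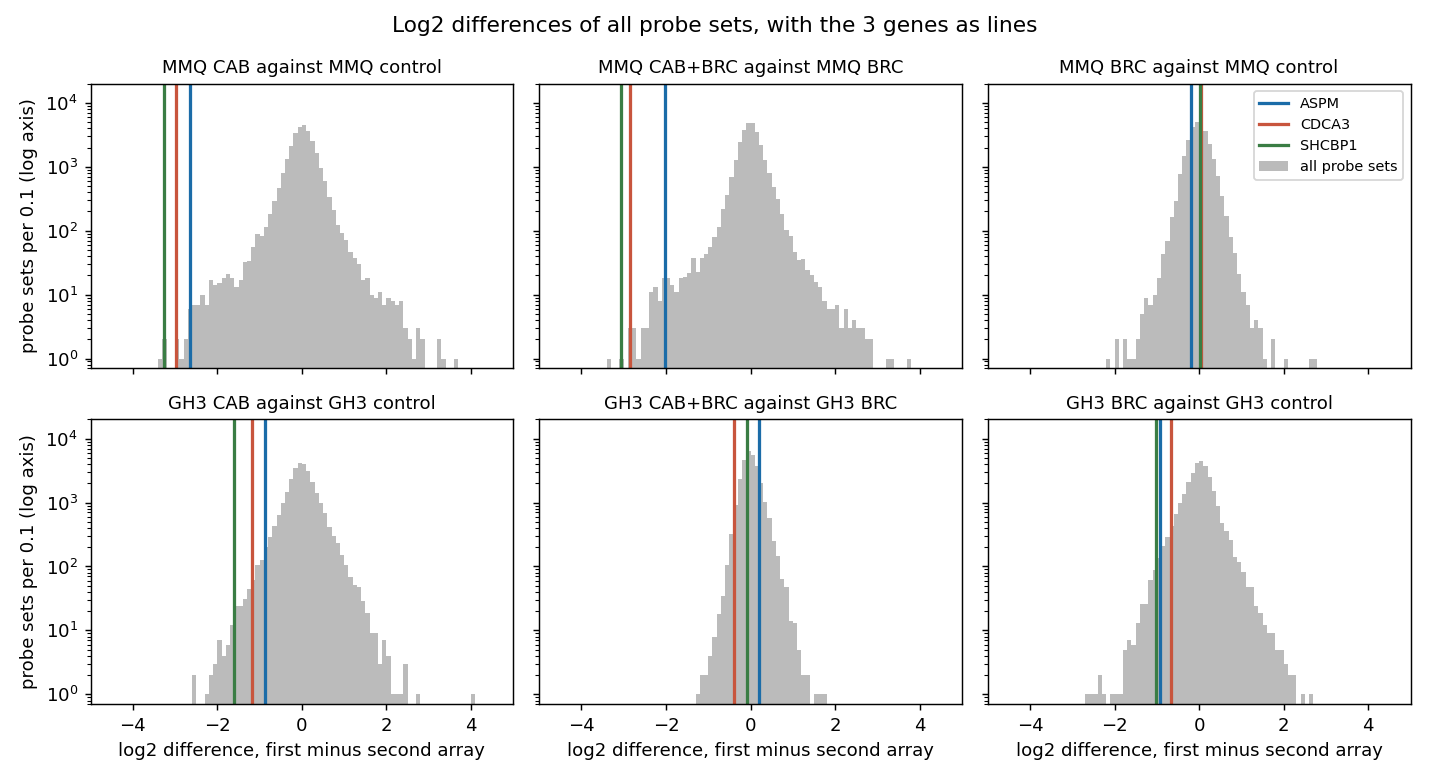
Log2 differences between pairs of arrays for all 28295 probe sets (grey, number per bin of 0.1 on a log axis), with ASPM, CDCA3 and SHCBP1 as coloured lines. The lines stand at the lower end in both MMQ pairs for CAB, near 0 for BRC in MMQ cells, and at -0.66 to -1.60 in the GH3 pairs against the control.

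BRC left the 3 genes near their control values in MMQ cells. The log2 difference of BRC against control was -0.20 for ASPM, 0.038 for CDCA3 and 0.028 for SHCBP1, and for CDCA3 and SHCBP1 it was -0.047 and -0.042 after quantile normalization. None was at least 2-fold lower, as were 0.141% of all probe sets. When BRC was added to CAB, all 3 were slightly higher than with CAB alone, by log2 differences of 0.42 for ASPM, 0.17 for CDCA3 and 0.22 for SHCBP1. Of all probe sets, 7.48% were as high as ASPM or higher in this pair, 23.3% as high as CDCA3 and 18.5% as high as SHCBP1. In limma on all 8 arrays, with a CAB and a BRC effect within each line, the BRC effect in MMQ cells had a 95% interval of -0.55 to 0.77 for ASPM, -0.39 to 0.59 for CDCA3 and -0.66 to 0.90 for SHCBP1. The intervals hold 0 and lie within a 2-fold change. This bound depended on single arrays. Without the MMQ control or MMQ BRC array the interval was -0.44 to 1.28 for ASPM and -0.83 to 1.27 for SHCBP1, and without the MMQ CAB or MMQ CAB+BRC array it was -1.05 to 0.66 for ASPM and -1.02 to 1.08 for SHCBP1, while that of CDCA3 stayed within a 2-fold change. Their adjusted p in limma was 0.897 to 0.926, and 0 of all tested probe sets passed (0%), with 1663 at an unadjusted p under 0.05. The MMQ control and MMQ CAB arrays that chose the genes enter this estimate with the same sign, while the choice used their difference.

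In GH3 cells the control was the highest of the 4 arrays for all 3 genes. Of all probe sets, 47.8% lay below the control under BRC, 51.2% under CAB and 46.9% under CAB+BRC. ASPM had an intensity of 733 in the control, 389 under BRC, 399 under CAB and 449 under CAB+BRC. CDCA3 was at 688 in the control, 436 under BRC, 301 under CAB and 334 under CAB+BRC. SHCBP1 was at 263 in the control, 128 under BRC, 85.8 under CAB and 121 under CAB+BRC. The 3 drug arrays lay closer to each other than to the control for all 3 genes. For CDCA3 and SHCBP1 the BRC array lay between the control and the CAB array. With CAB, 54.4% of the control intensity was left for ASPM, 43.8% for CDCA3 and 32.7% for SHCBP1.

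Against the GH3 control, CAB gave log2 differences of -0.88 for ASPM, -1.19 for CDCA3 and -1.60 for SHCBP1. CDCA3 and SHCBP1 were at least 2-fold lower, as were 1.16% of all probe sets. BRC gave -0.91 for ASPM, -0.66 for CDCA3 and -1.03 for SHCBP1, with SHCBP1 alone at least 2-fold lower beside 0.852% of all probe sets. CAB+BRC gave -0.71, -1.04 and -1.12 in the same order, with CDCA3 and SHCBP1 at least 2-fold lower beside 0.785% of all probe sets. These 3 pairs share the GH3 control array, and a drug effect and a deviation of that 1 array cannot be told apart. Among the drug arrays the differences went both ways. CAB+BRC against BRC gave 0.21 for ASPM, -0.38 for CDCA3 and -0.090 for SHCBP1, and CAB+BRC against CAB gave 0.17, 0.15 and 0.48. Of all probe sets, 2.15% were as low as CDCA3 or lower in the first of these pairs, and 2.71% as high as SHCBP1 or higher in the second. No gene was at least 2-fold lower in either of these pairs, as were 0.0177% and 0.124% of all probe sets.

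The combination in GH3 cells therefore lay above the sum of both single drugs. The departure was 1.08 on the log2 scale for ASPM, 0.81 for CDCA3 and 1.51 for SHCBP1, and 97.9%, 94.3% and 99.6% of all probe sets had a smaller one in size. In MMQ cells the departure was 0.62 for ASPM, 0.13 for CDCA3 and 0.19 for SHCBP1. Each departure holds its line's control array, so a deviation of that array and drugs that do not add cannot be told apart. The dose of each drug in the combination was not found, so the sum may rest on other doses. The limma fit of separate drug effects takes these departures as spread. The MMQ departure includes the 2 arrays that chose the genes, so the spread is not independent of the choice. Each fitted effect is the average of the drug with and without the other drug. The CAB effect in GH3 cells was -0.34 ± 0.275 (standard error) for ASPM, -0.79 ± 0.203 for CDCA3 and -0.85 ± 0.325 for SHCBP1, with adjusted p of 0.633, 0.484 and 0.484 in limma. The BRC effect was -0.37 for ASPM, -0.25 for CDCA3 and -0.27 for SHCBP1, with adjusted p between 0.595 and 0.741 in limma. For CAB and for BRC 0 of the tested probe sets passed (0%), against 1436 and 1691 before adjustment for multiple tests. Without the GH3 BRC or the GH3 CAB+BRC array the CAB effect was -1.19 for CDCA3 and -1.60 for SHCBP1 (adjusted p = 0.0304 and 0.0295 in limma). The effect is then GH3 CAB against GH3 control alone. Only MMQ arrays then give the spread, including the arrays that chose the genes, so this is no separate test. Without the GH3 control or the GH3 CAB array it was -0.38 and -0.090, and ASPM was at 0.21.

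Because the 3 drug arrays of GH3 cells lay below the control, they were also set together against it. This grouping was made after the values had been seen and rests on 1 control array, so its differences are a description with no test. They were -0.83 for ASPM, -0.96 for CDCA3 and -1.25 for SHCBP1, and each gene was lower than the control in 3 of 3 drug arrays. The share of all probe sets lower in every drug array was not counted.

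**Figure D4:**
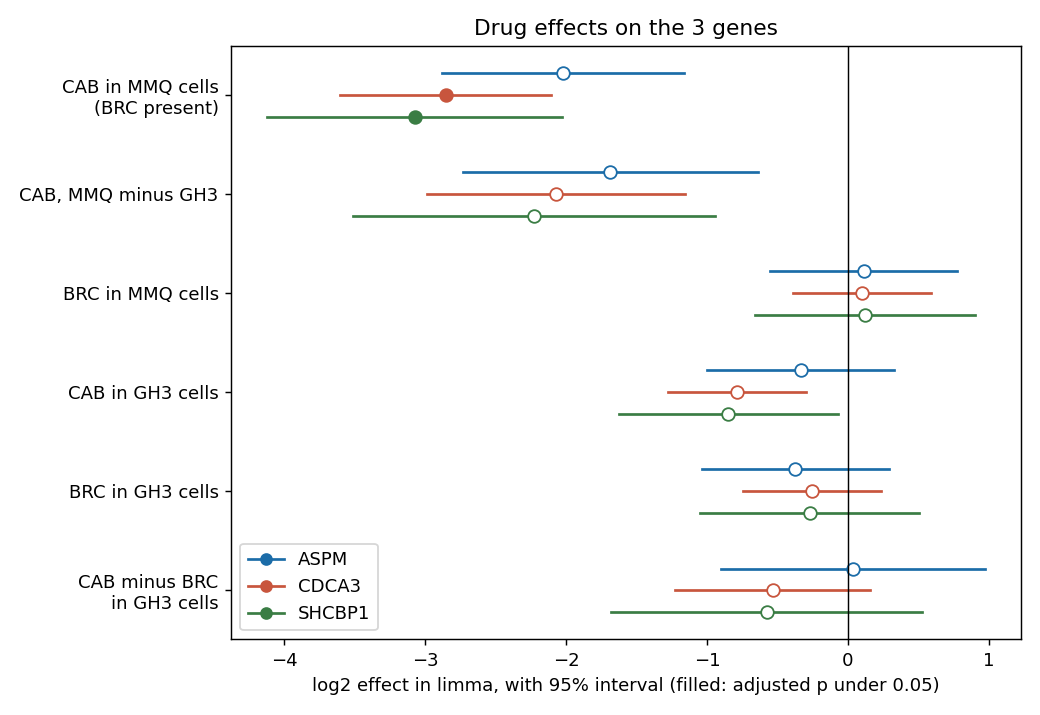
Log2 effects from limma for ASPM (blue), CDCA3 (red) and SHCBP1 (green), with 95% intervals as lines and filled points where the adjusted p was under 0.05. CAB in MMQ cells with BRC present stands lowest, at -2.02 to -3.07. Every fitted BRC effect, the average of BRC with and without CAB, has an interval that holds 0.

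Between the untreated lines ASPM had almost the same intensity, while GH3 cells were above MMQ cells by log2 differences of 0.38 for CDCA3 and 0.70 for SHCBP1. With BRC, GH3 against MMQ gave -0.71 for ASPM, -0.31 for CDCA3 and -0.36 for SHCBP1. None was at least 2-fold higher in GH3 cells in these pairs, beside 8.76% of all probe sets in the control and 8.59% with BRC. With CAB, GH3 cells were above MMQ cells by 1.77 for ASPM, 2.17 for CDCA3 and 2.36 for SHCBP1. Beside them, 10% of all probe sets were at least 2-fold higher in GH3 cells. This pair holds the MMQ CAB array, which helped to choose the genes. With CAB+BRC the differences were 1.52, 2.16 and 2.63, beside 9.19% of all probe sets at least 2-fold higher. Centring the arrays on their medians moved the median of all probe sets in that pair from 0.020 to -0.10, and the 3 genes then differed by 1.40, 2.04 and 2.51. The difference between the lines in the CAB effect was tested on the 6 arrays that did not choose the genes. MMQ minus GH3 was -1.69 for ASPM (95% interval -2.73 to -0.64), -2.07 for CDCA3 (-2.99 to -1.15) and -2.23 for SHCBP1 (-3.51 to -0.94). None passed over all probe sets, with adjusted p of 0.509, 0.226 and 0.403 in limma and unadjusted p of 0.00591, 0.000797 and 0.00391. In this test 0.00707% of the probe sets passed with an effect below 0. A difference between the lines in the BRC effect, tested after the values had been seen, did not pass either, at 0.48 for ASPM, 0.35 for CDCA3 and 0.39 for SHCBP1 with adjusted p of 0.585 to 0.708 in limma.

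CAB and BRC can be set beside each other at 50 μM within each line, although the sources give no treatment time for CAB in GH3 cells or BRC in MMQ cells. In MMQ cells CAB against BRC gave log2 differences of -2.44 for ASPM, -3.02 for CDCA3 and -3.29 for SHCBP1, with no test because the CAB array chose the genes. All 3 were at least 2-fold lower, beside 1.89% of all probe sets. In GH3 cells CAB minus BRC was 0.036 for ASPM, with a 95% interval of -0.90 to 0.97, and -0.042 after quantile normalization. For CDCA3 it was -0.53 (95% interval -1.22 to 0.16) and for SHCBP1 -0.58 (-1.68 to 0.53). None passed, with adjusted p of 0.610 to 0.987 in limma (0% of the tested probe sets passed, with 1254 at an unadjusted p under 0.05), none was at least 2-fold lower beside 0.0813% of all probe sets, and the intervals of CDCA3 and SHCBP1 leave room for more than a 2-fold difference.

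The 3 genes were compared by their 6 log2 differences, each drug array against the control of its line. CDCA3 and SHCBP1 were the nearest pair, with a root mean square difference of 0.27. ASPM differed from CDCA3 by 0.37 and from SHCBP1 by 0.55, most in MMQ cells with CAB+BRC, where it was lowered less. From the mean of the 3 genes, CDCA3 lay at 0.11, SHCBP1 at 0.26 and ASPM at 0.30. Of all probe sets, 13 lay as near as ASPM or nearer, the 3 genes included, and the other ones carry no reliable name. This measure includes the pair that chose the genes. Of the other 17 genes identified through the study's gene lists, ATP6V1G3, a subunit of the proton pump of acid vesicles, was the nearest at 1.09. Its intensity was 969 in the GH3 control and 194, 299 and 219 under BRC, CAB and both drugs, and 196 in the MMQ control and 57.1, 20.2 and 18.7 in the same order. It was thus lower with BRC in MMQ cells, where the 3 genes stayed near the control. The next were KCNMA1, a potassium channel, at 2.06 and the transcription factor EGR1 at 2.17. Both were higher in all GH3 drug arrays than in the GH3 control, in contrast to the 3 genes. In MMQ cells both were low with CAB, as the 3 genes were. KCNMA1 was at 122 in the MMQ control, 62.9 under BRC, 26.5 under CAB and 35.5 under CAB+BRC. EGR1 was at 256, 521, 42.4 and 49.3 in the same order. In MMQ CAB+BRC against MMQ BRC, EGR1 had the lowest log2 difference of all probe sets, -3.37.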

How the data were processed

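RNA of 8 cultures was hybridized to 8 arrays. The authors computed 1 intensity per probe set and array with the Affymetrix Command Console software and deposited it on a linear scale. The sources used here do not give how probes were summarized, background-corrected or normalized. No detection calls were used. Their medians were alike, so the intensity was used as deposited, as log2(intensity + 1). All 8 value columns were used.

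By GEO's annotation 18948 probe sets have 1 gene symbol, 399 several and 8948 none. Across 2778 genes with a pair of probe sets, the correlation of their mean log2 values was -0.0245, and 0 of 20 identified probe sets carried the name of their gene. Genes were matched by the fold printed by the study, within a relative tolerance of 1e-06. A few matched genes are not reported here.

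Pairs of arrays were compared at the 2-fold cutoff of the study's methods, with no p-value. Effects were fitted with limma 3.58.1 in R 4.3.3 (lmFit, eBayes), as a line term and, for each line, a CAB and a BRC term. The fit of 8 arrays has 2 residual degrees of freedom and assumes that the drugs add. Calls need an adjusted p under 0.05. The procedure was tested on data simulated with independent errors around the fitted model. That simulation does not show how the p-values behave where the drugs do not add. Named beside the 3 genes were the 3 nearest of the matched genes. The genes, lists and tests were chosen with earlier results of these data known. Alternatives were quantile normalization, median centring, no filter, a pseudocount of 16, other fold cutoffs and leaving out arrays. With 1 array per condition, p-values rest on departures from additivity, and precision is limited by the small number of arrays. Python 3.11.15 drew the figures.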

Additional observations from a re-analysis of the deposited data

How the results depend on the processing

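Among the limma effects of the 3 genes, 19 changed sign when an array was left out and 1 under another scaling, and many of the others could not change, since the array left out was of the other line or the filter alone changed. For CAB in MMQ cells with BRC present, a fit of all 8 arrays gave -2.33 for ASPM, which averages in the pair that chose the genes and is no test of CAB with BRC present. CDCA3 was lost without a filter (-2.85) and with a pseudocount of 16 (-2.63), and SHCBP1 with these (-3.07 and -2.38) and with median centring (-3.06). No array could be left out of that fit of 6, because no residual degree of freedom or no CAB effect would be left. Without one array each, CAB in GH3 cells ranged from -0.88 to 0.21 for ASPM, from -1.19 to -0.38 for CDCA3 and from -1.60 to -0.090 for SHCBP1. BRC in GH3 cells ranged from -0.91 to 0.17, from -0.66 to 0.15 and from -1.03 to 0.48 in that order, above 0 without the GH3 control or GH3 BRC array, and equal to GH3 BRC against GH3 control alone without the GH3 CAB or GH3 CAB+BRC array, where SHCBP1 (adjusted p = 0.0466 in limma) takes its spread from MMQ cells, including the arrays that chose the genes. CAB minus BRC in GH3 cells ranged from -1.05 to 1.12, from -1.34 to 0.27 and from -2.09 to 0.94, with CDCA3 and SHCBP1 above 0 without the GH3 CAB array and ASPM below 0 without the GH3 BRC array, and was -0.042 for ASPM under quantile normalization. BRC in MMQ cells ranged from -0.20 to 0.42, from 0.04 to 0.17 and from 0.03 to 0.22, with ASPM below 0 without the MMQ CAB or MMQ CAB+BRC array. The difference of the lines in the BRC effect ranged from -0.059 to 1.03, from -0.049 to 0.76 and from -0.36 to 1.15, below 0 without the GH3 control or GH3 BRC array. Any drug against control in GH3 cells ranged from -0.90 to -0.79, from -1.11 to -0.85 and from -1.36 to -1.07. There ASPM was at -0.80 with quantile normalization and at -0.83 without a filter, and SHCBP1 at -1.25 without a filter. The cause of these changes was not tested. The number of the 3 genes at least 2-fold lower with BRC in GH3 cells went from 1 to 0 with a pseudocount of 16 or a 3-fold cutoff and to 3 at 1.5-fold. With CAB in GH3 cells it went from 2 to 1 at 3-fold, and with CAB+BRC from 2 to 1 after quantile normalization and to 0 at 3-fold. At a relative tolerance of 1e-05 or 1e-04 on the fold, each gene still had 1 probe set. No paired analysis was possible because each condition has 1 array.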
